A study of Mus musculus with 8 samples.

Results

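Solute carriers are membrane proteins that move sugars, amino acids, nucleosides, metals, ions and vitamins across the plasma membrane and the membranes of organelles, and this section follows their transcripts in mouse macrophages after lipopolysaccharide (LPS), interferon beta (IFNb) or both. The genes were chosen by symbol: protein-coding genes named Slc followed by a digit, with a level of 1 TPM or more (the length-corrected share of a library's transcripts, scaled to a fixed total) in 2 or more of the 8 libraries, leaving out 6 carriers (Slc2a1, Slc7a2, Slc7a11, Slc11a1, Slc11a2 and Slc40a1). Of 364 candidate genes, 179 met this rule, among 13009 genes tested in all. The 185 that did not meet it stayed at or below 2.13 TPM in every library, and 22 of them were listed at 0 throughout.

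The libraries came from 7-week-old male C57BL6 mice that received saline, LPS or IFNb in the peritoneum for 4 h, or IFNb for 4 h and then LPS for 4 h (the LPS+IFNb group). Each group held 2 libraries of total RNA from cells labelled as macrophages. No group received IFNb and then saline, so the LPS+IFNb cells were taken later after IFNb than the IFNb cells. The labels do not say whether a group's 2 libraries are separate animals or pools, so the tests measure the spread between libraries, which may be technical.

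Some background helps to place the genes. Solute carriers are grouped into numbered families by sequence, and the families largely follow substrate: family 2 carries hexoses, family 7 amino acids, family 25 sits mostly in the inner mitochondrial membrane, families 30 and 39 export and import zinc, and family 35 carries nucleotide sugars into the Golgi and endoplasmic reticulum. In macrophages, lysosomal carriers return the products of digested cargo to the cytosol, metal carriers share in withholding nutrients from microbes, and several amino acid carriers of the family 7 type work only when paired with the glycoprotein CD98, the product of Slc3a2. LPS is sensed by Toll-like receptor TLR4 and drives NF-kB target genes, whereas IFNb acts through its own receptor and STAT and IRF factors. The symbol rule also caught genes whose proteins carry nothing themselves. Besides Slc3a2, whose product pairs with carriers, these include Slc4a1ap (kanadaptin), Slc7a6os and Slc9a3r1 (the scaffold protein NHERF1).

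The 179 genes together made up 0.560% to 0.689% of each library's TPM. At least 1 TPM in all 8 libraries was seen for 144 of them, 128 had a mean of 5 TPM or more, and 14 a mean of 100 or more. Just inside the level rule, Slc17a8, Slc25a27 and Slc13a3 had a second-highest library of 1.05, 1.11 and 1.17 TPM, and just outside it Slc39a4, Slc4a3 and Slc22a21 had 0.945, 0.961 and 0.999 TPM. Slc5a6 and Slc25a27 met the rule through the saline libraries alone and Slc17a8 through the LPS+IFNb libraries alone, so these 3 were bound to differ between groups. Summed over 7 macrophage markers, the libraries held 14126 to 21822 TPM, and none of the 7 was at 0. Lyz2 (10160.5 to 17557.4 TPM) made up most of this sum, and single markers moved in different directions. Fcgr1 went from 62.2 and 54.3 TPM with saline to 691 and 739 after IFNb. Mertk went from 49.4 and 51.6 TPM with saline to 18.5 and 17.1 after LPS and 81.4 and 83.3 after IFNb. Csf1r went from 309.7 and 323.7 TPM with saline to 136.9 and 149.8 after LPS+IFNb. Markers of resident peritoneal macrophages (5 genes) summed to 29.3 to 43.1 TPM, with Gata6, the gene that defines these cells, between 0.862 and 2.11 TPM and Icam2 at 16.2 and 19.6 TPM with saline and 7.90 to 11.6 in the treated groups. Timd4 of this list went the other way, from 0.427 and 0.549 TPM with saline to 1.29 to 3.37 in the treated groups, as did Garnl3, from 0.990 and 1.39 to 2.46 to 6.25. Markers of monocytes and small peritoneal macrophages (6 genes) summed to 65.7 and 74.7 TPM with saline, 140.3 to 153.4 with LPS, 562 to 685 with IFNb and 486 to 542 with LPS+IFNb, mostly through Plac8, Vcan and Ly6c2. Ccr2 of the same list went the other way, from 31.5 and 34.1 TPM with saline to 4.15 and 5.45 after LPS, 22.8 and 23.4 after IFNb and 5.34 and 8.02 after both. B cell markers (5 genes) summed to 57.8 to 60.2 TPM with saline and to 30.8 to 44.8 in the treated groups, and T cell markers (5 genes) to 15.3 to 19.1 and 4.56 to 11.4 TPM. Neutrophil markers (6 genes) summed to 205 to 312 TPM over all libraries, with Ly6g at or below 0.746 TPM. Mast cell markers (5 genes) summed to 41.2 to 68.8 TPM. Eosinophil markers (4 genes) summed to 15.6 and 18.4 TPM with saline and 6.21 to 10.8 in the treated groups. Mesothelial and red cell markers (4 genes each) stayed at or below 11.5 and 8.08 TPM. The part of these marker levels in the carrier results was not tested, and in bulk RNA fewer cells of a type and less RNA per cell cannot be told apart.

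TPM values are shares of a library, and treatment moved the midpoint of the whole distribution. The median gene differed from saline by -0.38 in log2(TPM + 1) with LPS, by -0.37 with IFNb and by -0.62 with LPS+IFNb. Each call is therefore given on 2 scales, the values as deposited and the values rescaled so that the median ratio between libraries is level, which adds 0.39, 0.34 and 0.61 to these 3 differences. "Rose" and "fell" below mean a limma adjusted p under 0.05 in the same direction on both scales, unless the sentence says otherwise. In each comparison of 2 groups, rescaling moved the differences upward. Every carrier higher as deposited and every carrier lower after rescaling was therefore also called on the other scale. The deposited values thus decided the rises and the rescaled values the falls, so the 2 counts rest on unlike thresholds. No solute carrier gene was called in opposite directions on the 2 scales in any comparison.

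**Figure D1:**
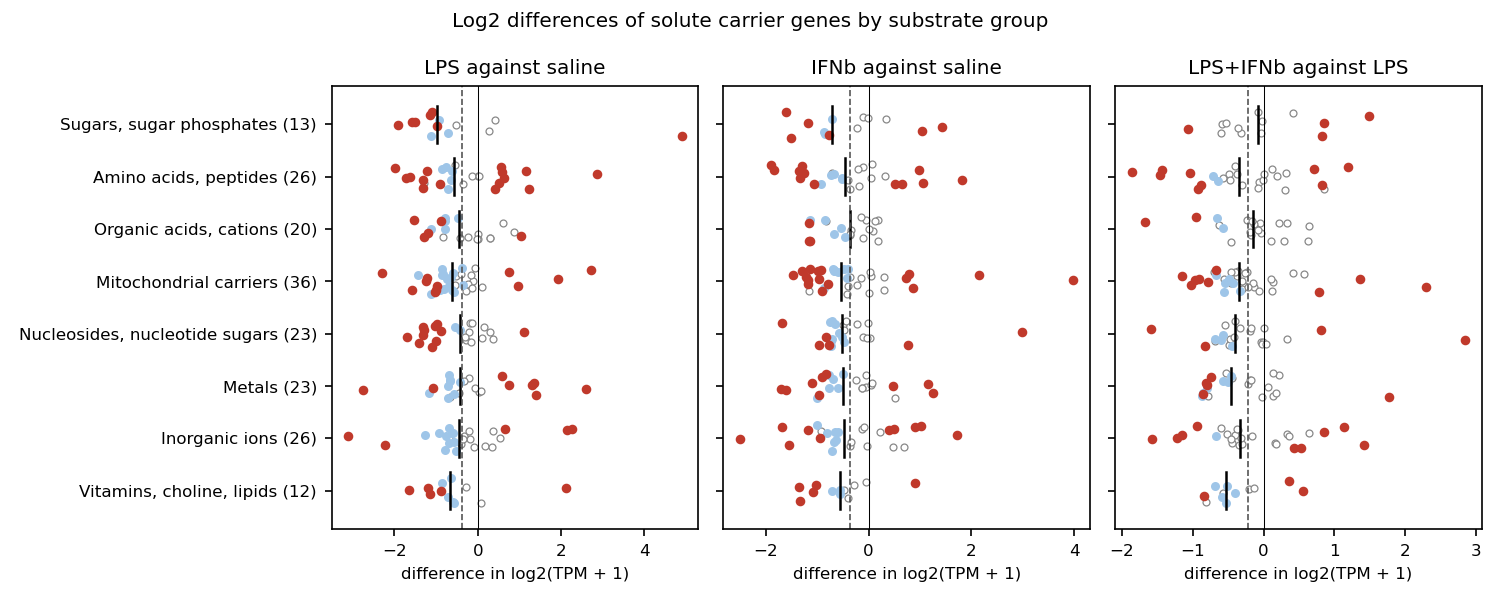
Differences in log2(TPM + 1) of the 179 solute carrier genes (points) by substrate group, with the number of genes in brackets, for 3 comparisons of 2 against 2 libraries. Red points were called on both scales, pale blue points only as deposited and open points not as deposited. Short black lines mark group medians and the dashed line the median of all 13009 genes. Every group median lies to the left of the dashed line against saline, while single genes such as Slc2a6 (4.89 with LPS) stand far to the right. The median of organic acids and cations with IFNb (-0.368) nearly touches the line (-0.367).

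With LPS, falls among solute carriers outnumbered rises. As deposited, 25 of 179 genes were higher (12.8% of all genes tested were) and 95 were lower (41.3% of all genes). After rescaling the counts were 34 higher and 42 lower, against 20% and 16.7% of all genes, and 25 and 42 genes were called on both scales (12.8% and 16.7% of all genes). The median solute carrier changed by -0.57 as deposited and -0.17 rescaled, where the median of all genes was -0.38 and 0.01. The rising share of the carriers was close to the share over all genes on either scale, and the falling share was above it. The difference between the LPS and IFNb effects was not tested directly, so values with the 2 agents are set side by side.

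With IFNb alone, falls again outnumbered rises. As deposited, 23 genes were higher (13% of all genes) and 91 lower (38.6% of all genes), and rescaled 27 and 44 (17.8% and 14.1% of all genes). On both scales 23 rose and 44 fell, against 13% and 14.1% of all genes. The median was -0.51 as deposited and -0.16 rescaled, beside -0.37 and -0.03 over all genes.

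Relative to LPS alone, pretreatment with IFNb left 19 carriers higher and 26 lower on both scales. As deposited, 19 genes were higher (10.8% of all genes) and 52 lower (24.1%), rescaled 25 and 26 (14.4% and 9.9%), and on both scales 10.8% and 9.9% of all genes were called. The higher count as deposited was smaller without any 1 of the LPS or LPS+IFNb libraries. The lower count was smaller without LPS replicate 1, LPS replicate 2 or LPS+IFNb replicate 1. Each of these fits leaves 1 library in a group, so the smaller counts do not single out a library. Against IFNb alone, LPS+IFNb had 23 genes higher (8.76% of all genes) and 63 lower (30.5%), rescaled 33 and 27 (12.7% and 10.5%), and 23 and 27 on both scales (8.76% and 10.5%). Both of these counts as deposited were smaller without IFNb replicate 1, IFNb replicate 2 or LPS+IFNb replicate 1, with the same limit. Against saline, the combined treatment had 28 genes higher (15.2%) and 113 lower (54.1%), rescaled 46 and 67 (26.6% and 24.9%), and 28 and 67 on both scales (15.2% and 24.9%). These comparisons share libraries, so their counts are not independent of one another.

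Levels in saline set the baseline. The highest solute carrier was Slc25a3, the mitochondrial phosphate carrier, at 475 and 467 TPM, although 35.4% of its summed TPM lay in protein-coding transcripts. Next came Slc15a3 (a histidine and peptide carrier of endosomes and lysosomes) at 319.6 and 333 TPM, the creatine carrier Slc6a8 at 259.8 and 387 and the ADP/ATP carrier Slc25a5 at 274 and 245. The sugar phosphate exchanger Slc37a2, the taurine carrier Slc6a6, the CD98 heavy chain Slc3a2, Slc38a6, the fatty acid carrier Slc27a1 and the neutral amino acid carrier Slc43a2 completed the first 10, at means between 113 and 179 TPM. Slc6a6 (128 and 219.6 TPM) and Slc43a2 (84.4 and 141 TPM) were uneven between the saline libraries, as was Slc6a8, with replicate 2 the higher. Slc25a3 lay above every other carrier in both saline libraries, whereas the ranges of Slc6a8 and its neighbours Slc15a3 and Slc25a5 overlap, as do those of Slc37a2 and Slc6a6.

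The genes were grouped by family number, and the group counts below are of calls on both scales. Over all genes tested, 12.8% rose and 16.7% fell with LPS and 13% rose and 14.1% fell with IFNb on that rule. No group was tested against these shares or against another group.

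Among the 13 carriers in the families of sugars and sugar phosphates, 1 rose and 6 fell with LPS (7.69% and 46.2%), or 5 of 12 fell when Slc5a6, which met the level rule through saline alone, is set aside. The riser was Slc2a6, a hexose carrier of intracellular membranes also called GLUT6. Its level was 6.796 and 7.06 TPM in the saline libraries, 229 and 239 after LPS, 16.9 and 13.7 after IFNb and 220.4 and 222 after LPS+IFNb. The LPS libraries therefore stood 33.8-fold above saline (log2 difference 4.89, SE 0.11, adjusted p = 1.1e-06), the largest rise of the 179 genes in this comparison, and IFNb alone also gave a rise (log2 difference 1.03, SE 0.11, adjusted p = 0.00058). LPS+IFNb was not called against LPS (log2 difference -0.08, SE 0.11, adjusted p = 0.61).

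All 4 family 37 sugar phosphate carriers were lower with LPS as deposited, and 3 of them also after rescaling. Slc37a2 held 185 and 173 TPM with saline, 67.6 and 56.8 after LPS, 57.4 and 66.6 after IFNb and 25.1 and 33.8 after LPS+IFNb. It fell with LPS (log2 difference -1.52, SE 0.16, adjusted p = 0.00054) and with IFNb (log2 difference -1.52, SE 0.16, adjusted p = 0.0006), and lay lower again in the combined group. Slc37a3, which lies in lysosomes, read 9.62 and 9.14 TPM with saline, 4.07 and 4.42 after LPS, 10.3 and 8.46 after IFNb and 13.2 and 14.1 after LPS+IFNb. It fell with LPS (-0.99, adjusted p = 0.0012), was not called with IFNb (-0.01, adjusted p = 0.97) and was highest in the combined group, where it rose over LPS alone (log2 difference 1.48, SE 0.13, adjusted p = 0.00057). The intracellular hexose carrier Slc2a8 fell with both single treatments, from 12.3 and 12.7 TPM to 4.06 and 6.28 after LPS and 5.27 and 4.58 after IFNb. The neuronal-type glucose carrier Slc2a3 stayed at or below 3.36 TPM in every library. Slc5a6, a vitamin carrier placed here by its family number, read 2.31 and 1.798 TPM with saline and at most 0.0471 TPM in any treated library.

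Of the 26 genes in the families of amino acids and peptides, Slc3a2 and Slc7a6os included, 8 rose and 7 fell with LPS (30.8% and 26.9%). With IFNb 5 rose and 7 fell (19.2% and 26.9%). Slc3a2, the CD98 heavy chain, went from 146 and 144 TPM with saline to 225 and 212 after LPS, 229 and 228 after IFNb and 242 and 232 after LPS+IFNb, with no treated library as low as saline (log2 difference 0.59, SE 0.07, adjusted p = 0.00084 for LPS). Slc7a8 (LAT2, a CD98 light chain that exchanges neutral amino acids) read 30.9 and 48.3 TPM with saline, 90.4 and 93.3 after LPS, 145 and 132 after IFNb and 165 and 162 after LPS+IFNb. The 4 groups did not overlap, and the rise was called with LPS (log2 difference 1.23, SE 0.19, adjusted p = 0.0023), with IFNb (log2 difference 1.81, SE 0.19, adjusted p = 0.00054) and in LPS+IFNb over LPS (0.83, adjusted p = 0.018), although this last call was lost when any 1 of those 4 libraries was left out. Slc7a5 (LAT1), the other main neutral light chain, was scarce, with 1.57 and 1.91 TPM in saline and a peak of 4.303 and 4.55 TPM with IFNb. Against saline it rose with LPS, with IFNb and with LPS+IFNb, and it was lower in LPS+IFNb than in IFNb as deposited only. A further CD98 light chain, Slc7a6, went the other way, with 4.52 and 4.85 TPM in saline, 2.42 and 3.06 after LPS (lower as deposited only, -0.61, adjusted p = 0.019) and 1.36 and 1.16 after IFNb, a fall (-1.33, adjusted p = 0.00097). Slc7a1, which imports arginine, rose with LPS from 1.62 and 2.71 to 6.27 and 5.73 TPM (1.17, adjusted p = 0.003) and read 2.69 and 2.7005 TPM with LPS+IFNb, lower than with LPS (-0.92, adjusted p = 0.012, also lost without any 1 of those 4 libraries).

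The 2 endolysosomal histidine and peptide carriers went in opposite directions with LPS. Slc15a3 had 319.6 and 333 TPM with saline, 518 and 491 after LPS, 697 and 668 after IFNb and 824 and 835 after LPS+IFNb, so that each group lay above the one before without overlap. Its rise was called with LPS (log2 difference 0.63, SE 0.07, adjusted p = 0.0006), with IFNb (log2 difference 1.06, SE 0.07, adjusted p = 6.7e-05) and in LPS+IFNb over LPS (log2 difference 0.72, SE 0.07, adjusted p = 0.00082). It shares 1541 exon bases on the opposite strand with Tmem132a, which read 15.2 to 26.9 TPM, and without stated strand use reads of the 2 genes cannot be told apart. Slc15a4, required for signalling by endosomal Toll-like receptors, had 76.1 and 67.3 TPM with saline, 33.5 and 26.95 after LPS, 47.7 and 51.2 after IFNb and 17.998 and 18.02 after LPS+IFNb. It fell with LPS (log2 difference -1.22, SE 0.13, adjusted p = 0.00047), and the combined group was lowest (-1.41, adjusted p = 0.0006 against IFNb). With IFNb it was lower as deposited only (-0.52, adjusted p = 0.014, adjusted p = 0.6 rescaled), and not without saline replicate 1 or IFNb replicate 1.

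Slc43a2 (LAT4), which lets neutral amino acids out along their gradient, read 84.4 and 141 TPM with saline, 34.9 and 29.6 after LPS, 29.8 and 27.1 after IFNb and 6.99 and 9.45 after LPS+IFNb. The combined group was 13.7-fold below saline (log2 difference -3.59, SE 0.25, adjusted p = 5.3e-05), and either single treatment lay between. The proton-coupled carrier Slc36a4 gave 39.7 and 40.2, 12.01 and 12.6, 10.3 and 10.7 and 4.02 and 3.84 TPM in the same order of groups (log2 difference -3.06, SE 0.10, adjusted p = 1.9e-06 for LPS+IFNb against saline). Its lysosomal relative Slc36a1 fell with LPS, from 28.8 and 39.6 to 8.08 and 7.46 TPM (-1.99, adjusted p = 0.00027), and with IFNb to 12.9 and 12.3 TPM (-1.36, adjusted p = 0.0013). Slc6a12, a betaine carrier used in osmotic balance, was scarce in saline at 1.97 and 1.48 TPM, rose to 17.97 and 19.2 after LPS (log2 difference 2.85, SE 0.26, adjusted p = 0.00029), read 1.103 and 0.292 after IFNb and reached 7.08 and 5.31 after LPS+IFNb. The glutamine carrier Slc38a1 moved both ways: 13.7 and 16.4 TPM with saline, 23.7 and 21.3 after LPS (0.55, adjusted p = 0.013, a call lost without saline replicate 1 or LPS replicate 1), 5.15 and 5.83 after IFNb (-1.30, adjusted p = 0.0005) and 16.1 and 17.6 after LPS+IFNb. Slc1a5, another glutamine carrier, was called lower with IFNb (-1.27, adjusted p = 0.0025), but 12.5% of its TPM lay in protein-coding transcripts, and over those transcripts alone the sign turned (1.24, adjusted p = 0.16).

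**Figure D2:**
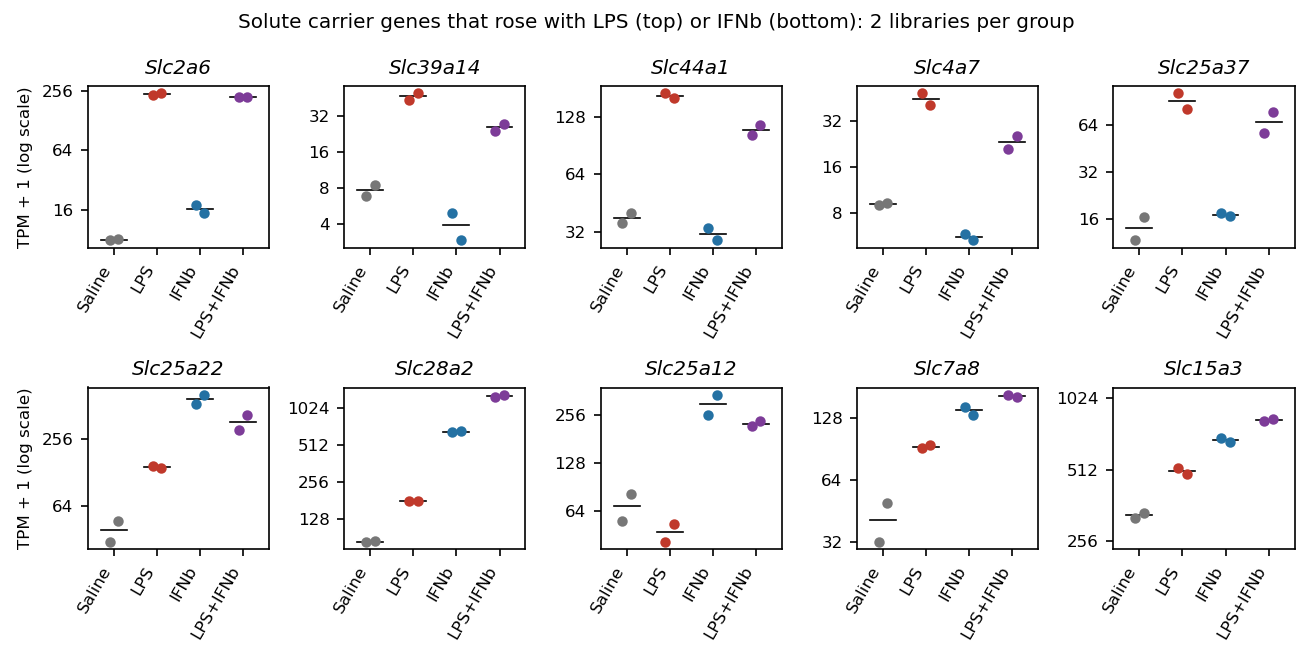
TPM + 1 on a log scale in each of the 2 libraries per group (points) with the group mean (line) for 10 solute carrier genes. Slc2a6 reaches 229 and 239 TPM in the LPS libraries from 6.796 and 7.06 in saline, and Slc28a2 climbs from 81.7 and 82.8 TPM in saline to 1253 and 1306 TPM with LPS+IFNb.

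Nucleoside carriers gave the largest gain in summed level. Summed TPM of the 23 carriers of nucleosides and nucleotide sugars went from 766 and 774 with saline to 601 and 559.7 after LPS, 1218 and 1272 after IFNb and 1579 and 1655 after LPS+IFNb, and Slc28a2 alone made up most of the combined-treatment sum. Slc28a2 (CNT2) concentrates purine nucleosides such as adenosine into cells with sodium. It held 81.7 and 82.8 TPM with saline, 178 and 177 after LPS, 652 and 659 after IFNb and 1253 and 1306 after LPS+IFNb. The replicates were close and the 4 groups did not overlap. LPS gave a rise (log2 difference 1.10, SE 0.07, adjusted p = 4.7e-05), IFNb also gave a rise (log2 difference 2.98, SE 0.07, adjusted p = 5.7e-07), and LPS+IFNb stood 7.21-fold above LPS (log2 difference 2.84, SE 0.07, adjusted p = 2.6e-05). Gm14085, a near-identical copy of the gene, read 1.62 to 9.44 TPM, so the division of reads between the 2 is uncertain.

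The equilibrative nucleoside carrier Slc29a1 (ENT1, at the cell surface) read 49.4 and 44.4 TPM with saline, 44.7 and 37.2 after LPS, 13.4 and 14.4 after IFNb and 11.4 and 14.7 after LPS+IFNb. Both groups that had IFNb lay below both that did not (log2 difference -1.68, SE 0.15, adjusted p = 0.0003), and LPS alone was not called (-0.19, adjusted p = 0.32). Slc29a3 (ENT3), which lets nucleosides out of lysosomes, read 104 and 108, 33.7 and 29.8, 180.0 and 184 and 53.5 and 59.6 TPM in the same order of groups. It fell with LPS (log2 difference -1.71, SE 0.10, adjusted p = 3.7e-05) and rose with IFNb (log2 difference 0.77, SE 0.10, adjusted p = 0.0011), and the combined group lay between LPS and saline. Of the 20 genes of family 35, which includes the nucleotide sugar carriers, none was higher and 11 were lower with LPS as deposited (2 and 9 rescaled), and none and 12 with IFNb (none and 3 rescaled). Over all genes, 41.3% and 38.6% were lower as deposited and 16.7% and 14.1% rescaled. Slc35b4 fell with LPS from 33.2 and 30.9 to 13.2 and 11.5 TPM (-1.31, adjusted p = 0.00025), and Slc35a1, which brings CMP-sialic acid into the Golgi, from 19.7 and 19.1 to 9.78 and 10.5 TPM (-0.87, adjusted p = 0.00097).

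Mitochondrial carriers (36 genes) had 4 risers and 7 fallers with LPS (11.1% and 19.4%, near the shares over all genes) and 5 and 11 with IFNb (13.9% and 30.6%). The fallers include Slc25a27, which met the level rule through saline alone. Slc25a37 (mitoferrin 1), which brings iron into mitochondria, held 10.6 and 15.3 TPM with saline, 101 and 79.9 after LPS, 16.3 and 15.7 after IFNb and 55.7 and 76.4 after LPS+IFNb, and rose with LPS (log2 difference 2.72, SE 0.22, adjusted p = 0.00018) but was not called with IFNb as deposited (0.30, adjusted p = 0.29; 0.66 rescaled, adjusted p = 0.039). As 21.5% of its TPM lay in protein-coding transcripts, the LPS rise was also taken over those alone (2.26, adjusted p = 0.00091). The calls for its relative Slc25a28 (mitoferrin 2) were the reverse: 15.7 and 21.02 TPM with saline, 13.8 and 15.5 after LPS (-0.29, adjusted p = 0.17), 35.1 and 29.5 after IFNb (0.79, adjusted p = 0.0074) and 20.3 and 19.6 after LPS+IFNb.

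Slc25a12 (aralar), an aspartate-glutamate carrier, read 53.995 and 80.97 TPM with saline, 39.9 and 51.9 after LPS, 255 and 343 after IFNb and 217 and 236 after LPS+IFNb, a rise with IFNb (log2 difference 2.15, SE 0.24, adjusted p = 0.00065) and not with LPS (-0.53, adjusted p = 0.1). Of this TPM, 1.48% lay in the protein-coding transcript, and 66.8% in a processed transcript of 204 bases. The coding transcript alone read 1.36 and 1.31 TPM with saline and 3.84 and 5.64 with IFNb, a rise of 1.28 (adjusted p = 0.0048). Slc25a13 (citrin), the other aspartate-glutamate carrier, read 13.99 and 12.9 TPM with saline, 7.19 and 6.94 after LPS, 4.83 and 3.701 after IFNb (a fall, log2 difference -1.46, SE 0.15, adjusted p = 0.00049) and 2.46 and 2.79 after LPS+IFNb.

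Slc25a22, a glutamate carrier, was the largest riser with IFNb. It held 29.1 and 45.6 TPM with saline, 145 and 139 after LPS, 537 and 650.0 after IFNb and 313 and 424 after LPS+IFNb. It rose with LPS (log2 difference 1.93, SE 0.24, adjusted p = 0.00087) and with IFNb (log2 difference 3.98, SE 0.24, adjusted p = 4.1e-05), and LPS+IFNb lay between them, above LPS (1.35, adjusted p = 0.0062) and not called against IFNb (-0.69, adjusted p = 0.056). Transcripts under 500 bases held 78.4% of its TPM, 54.0% in a single coding transcript of 213 bases, and counting only transcripts of 500 bases or more gave a difference of 3.66 with IFNb (adjusted p = 3.9e-06).

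Promoter windows were searched for GAAA, any 2 bases and GAAA again, the core of the element bound by interferon-activated factors, on both strands from 250 bases before to 50 after each start. It was present in 3.44% of 32851 mouse windows, in 3.99% of the 27025 genes with a window and in 3 of the 135 solute carrier genes with one (2.22%). Those 3 are printed from RefSeq (build GRCm38.p6), upstream of the start only and along the gene's strand, with the match in capitals, because the genes that hold it did not move alike: Slc25a22 rose with IFNb, the ornithine carrier Slc25a15 fell (4.38 and 4.896 TPM with saline, 2.097 and 1.5999 after IFNb, -0.99, adjusted p = 0.0033), and Slc37a1 was not called (1.67 and 2.35 and 2.397 and 3.19 TPM, 0.34, adjusted p = 0.21).
Slc25a22, chr7:141435415-141435484, minus strand: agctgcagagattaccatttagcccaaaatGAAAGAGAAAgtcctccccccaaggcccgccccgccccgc
Slc25a15, chr8:22398659-22398728, minus strand: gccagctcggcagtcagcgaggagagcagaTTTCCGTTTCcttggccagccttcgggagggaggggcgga
Slc37a1, chr17:31296157-31296223, plus strand: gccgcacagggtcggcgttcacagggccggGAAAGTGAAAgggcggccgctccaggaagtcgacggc
In Slc25a15 the match is on the opposite strand and so reads in reverse complement. The Slc25a22 window belongs to a start other than that of its dominant 213-base transcript, which begins at 141434604 on the same strand. Of the 18 genes with a window that were higher with IFNb as deposited 1 held the motif, and of the 63 that were lower also 1. A match describes the letters in the window, not binding.

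The ADP/ATP carriers Slc25a4 and Slc25a5 read 55.8 and 53.9 and 274 and 245 TPM with saline and 26.8 and 24.9 and 168 and 172 TPM with LPS+IFNb, and Slc25a4 fell on both scales (-1.05, adjusted p = 8.8e-05). The lower level of Slc25a5 was called as deposited (-0.60, adjusted p = 0.0013) and turned to 0.12 after rescaling (adjusted p = 0.55). The 2-oxoglutarate carrier Slc25a11 fell with IFNb, from 77.9 and 75.96 to 42.9 and 45.6 TPM (-0.79, adjusted p = 0.00062), as did the dicarboxylate carrier Slc25a10, from 10.8 and 13.3 to 4.61 and 4.03 TPM (-1.29, adjusted p = 0.0026). The NAD carrier Slc25a51 fell with IFNb (52.7 and 66.3 to 26.1 and 23.9 TPM, -1.21, adjusted p = 0.00079) and was not called with LPS as deposited (60.2 and 52.7 TPM, -0.07, adjusted p = 0.7; 0.39 rescaled, adjusted p = 0.047). The citrate carrier Slc25a1 kept all 8 libraries between 29.8 and 44.04 TPM and was not called in any comparison as deposited (rescaled, LPS+IFNb against saline gave 0.46, adjusted p = 0.033). Slc25a45 fell with LPS and was not called with IFNb, at 21.9 and 29.2 TPM with saline, 4.29 and 4.405 after LPS (-2.30, adjusted p = 0.00032), 23.02 and 28.98 after IFNb (0.03, adjusted p = 0.91) and 8.33 and 5.75 after LPS+IFNb.

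Metal carriers (23 genes) had 6 risers and 2 fallers with LPS (26.1% and 8.70%), and 3 risers and 6 fallers with IFNb (13.04% and 26.1%). As deposited, 10 of the 23 were lower with LPS and 12 with IFNb, where 41.3% and 38.6% of all genes were. Slc30a1 (ZnT1), which exports zinc across the plasma membrane, held 47.5 and 51.3 TPM with saline, 7.24 and 5.85 after LPS, 120.3 and 119 after IFNb and 22.2 and 27.3 after LPS+IFNb. It fell with LPS (log2 difference -2.74, SE 0.14, adjusted p = 2.2e-05), rose with IFNb (log2 difference 1.26, SE 0.14, adjusted p = 0.00062), and stood in the combined group above LPS (1.77, adjusted p = 0.00037) and below IFNb (-2.23, adjusted p = 0.00013). Slc39a14 (ZIP14), which imports zinc and iron, moved the other way: 5.86 and 7.45 TPM with saline, 42.6 and 48.3 after LPS, 3.96 and 1.93 after IFNb and 23.1 and 26.1 after LPS+IFNb. Its LPS rise was called (log2 difference 2.61, SE 0.25, adjusted p = 0.00038), and its lower level with IFNb was called as deposited only (-0.999, adjusted p = 0.017, adjusted p = 0.066 rescaled) and not without saline replicate 2 or IFNb replicate 2. Slc39a8 (ZIP8), another zinc importer, was not called in any comparison and stayed between 1.38 and 2.46 TPM.

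Slc30a5 and Slc30a6, whose proteins pair to load zinc into the secretory pathway, went in opposite directions with LPS. Slc30a5 fell from 30.2 and 25.4 to 13.2 and 12.04 TPM (log2 difference -1.08, SE 0.12, adjusted p = 0.00063) and Slc30a6 rose from 10.2 and 9.895 to 28.9 and 27.3 TPM (log2 difference 1.40, SE 0.10, adjusted p = 1.0e-04). With IFNb, Slc30a5 fell to 14.3 and 14.2 TPM (-0.91, adjusted p = 0.0014) and Slc30a6 read 8.13 and 8.46 TPM (-0.25, adjusted p = 0.073). Slc39a10 fell with IFNb from 22.8 and 17.3 to 4.45 and 6.53 TPM (-1.70, adjusted p = 0.0028) and its close relative Slc39a6 from 22.2 and 23.8 to 12.6 and 10.2 TPM (-0.96, adjusted p = 0.0013).

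Both copper carriers rose with either agent. Slc31a1 (CTR1), the copper importer, read 29.8 and 30.1 TPM with saline, 49.5 and 51.99 after LPS, 43.97 and 40.02 after IFNb and 44.6 and 44.4 after LPS+IFNb. Slc31a2 (CTR2) read 56.9 and 55.2, 153 and 134, 129 and 124 and 153 and 161 TPM. In neither gene did a treated library reach down to saline (0.74, adjusted p = 0.00075 and 1.34, adjusted p = 8.7e-05 with LPS, and 0.47, adjusted p = 0.005 and 1.16, adjusted p = 0.00015 with IFNb). Slc48a1, which brings haem out of the phagolysosome, was lower with LPS as deposited only (82.05 and 81.1 to 46.7 and 54.2 TPM, -0.69, adjusted p = 0.0017, adjusted p = 0.18 rescaled) and fell with IFNb to 47.3 and 44.2 TPM (-0.82, adjusted p = 0.00094).

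**Figure D3:**
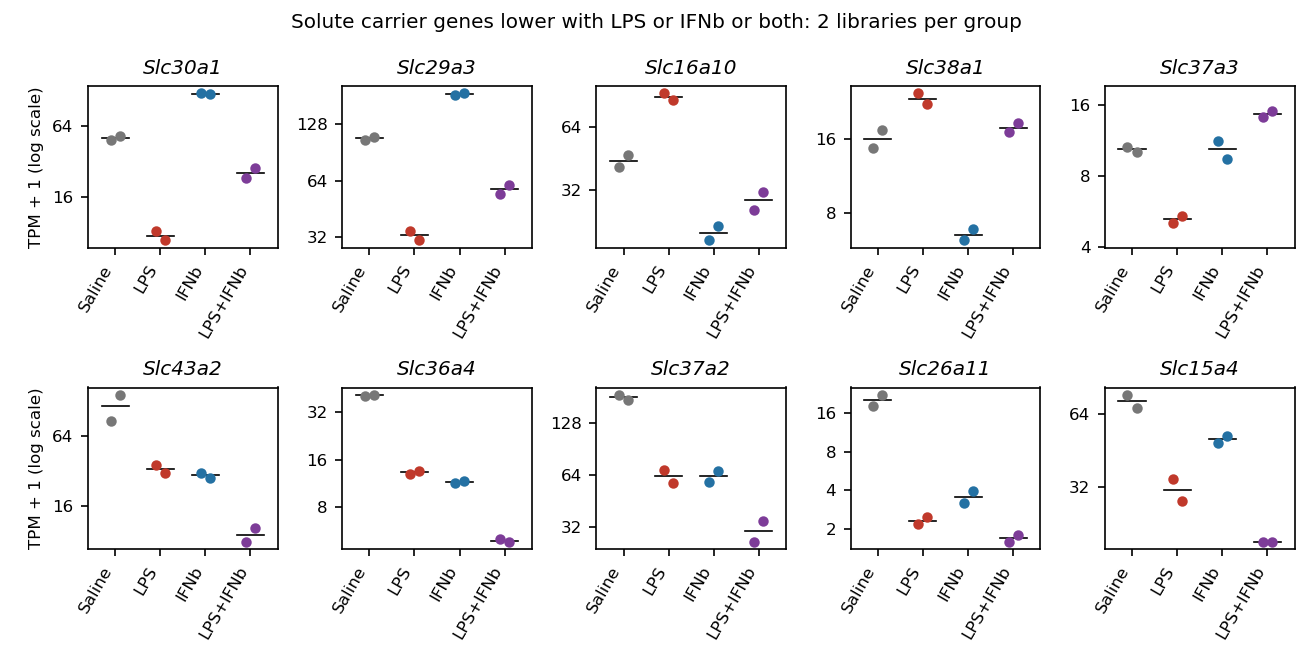
TPM + 1 on a log scale in each of the 2 libraries per group (points) with the group mean (line) for 10 solute carrier genes. Slc30a1 and Slc29a3 lie below saline with LPS and above it with IFNb, Slc16a10 and Slc38a1 show the reverse, and Slc43a2 and Slc36a4 are lowest with LPS+IFNb.

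Carriers of inorganic ions (26 genes) had 3 risers and 2 fallers with LPS, and 5 of each with IFNb. Slc4a7, a sodium bicarbonate cotransporter that serves phagosome acidification, held 8.07 and 8.35 TPM with saline, 47.5 and 39.7 after LPS, 4.84 and 4.34 after IFNb and 20.01 and 24.6 after LPS+IFNb. It rose with LPS (log2 difference 2.27, SE 0.15, adjusted p = 6.8e-05) and was lower in LPS+IFNb than in LPS (log2 difference -0.94, SE 0.15, adjusted p = 0.0042). Slc12a4, a potassium chloride cotransporter, rose with LPS from 9.94 and 16.4 to 61.8 and 57.8 TPM (log2 difference 2.14, SE 0.21, adjusted p = 0.00037).

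Slc8b1, which returns calcium from mitochondria, read 77.9 and 118 TPM with saline, 16.6 and 23.3 after LPS (log2 difference -2.23, SE 0.22, adjusted p = 0.0004), 58.5 and 60.7 after IFNb and 30.8 and 31.7 after LPS+IFNb. Slc8a1, the plasma membrane sodium calcium exchanger, read 14.6 and 13.9 TPM with saline, 8.56 and 5.64 after LPS (lower as deposited only, -0.93, adjusted p = 0.016, and not without saline replicate 1 or LPS replicate 2), 24.98 and 30.2 after IFNb (0.90, adjusted p = 0.018, a call lost without saline replicate 1, saline replicate 2 or IFNb replicate 2) and 13.6 and 19.9 after LPS+IFNb. Slc26a11, an anion carrier, had the largest fall with LPS and with IFNb among carriers with a mean of 5 TPM or more: 17.1 and 21.3 TPM with saline, 1.199 and 1.47 after LPS (log2 difference -3.11, SE 0.19, adjusted p = 5.4e-05), 2.18 and 2.97 after IFNb (log2 difference -2.50, SE 0.19, adjusted p = 0.00013) and 0.588 and 0.7996 after LPS+IFNb. The sodium proton exchanger Slc9a4 fell with IFNb from 9.72 and 10.6 to 3.08 and 1.92 TPM (-1.69, adjusted p = 0.0012). The phosphate importer Slc20a1 fell with IFNb (27.2 and 27.97 to 11.3 and 11.9 TPM, -1.18, adjusted p = 0.0017) and read 6.59 and 8.63 TPM with LPS+IFNb. The scaffold gene Slc9a3r1 rose with LPS from 109 and 115 to 162 and 194 TPM (0.66, adjusted p = 0.007).

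Of the 20 carriers of organic acids, organic cations and bile acids, 1 rose and 4 fell with LPS, and none rose and 3 fell with IFNb. Slc16a10 (TAT1), a carrier of aromatic amino acids in the monocarboxylate family, read 40.3 and 45.9 TPM with saline, 92.1 and 85.6 after LPS, 17.2 and 20.3 after IFNb and 24.6 and 30.3 after LPS+IFNb. It rose with LPS (log2 difference 1.03, SE 0.14, adjusted p = 0.0014), fell with IFNb (log2 difference -1.16, SE 0.14, adjusted p = 0.00096), and stood lower in LPS+IFNb than in LPS (log2 difference -1.67, SE 0.14, adjusted p = 0.00047). The lactate carrier Slc16a3 (MCT4) ranged from 37.7 to 98.7 TPM with wide replicate spread and was not called in any comparison. Its main transcript was higher in replicate 2 of saline and LPS and in replicate 1 of IFNb and LPS+IFNb. That transcript read 23.9 and 44.8 TPM with saline, 25.4 and 58.2 after LPS, 46.9 and 24.7 after IFNb and 53.9 and 29.4 after LPS+IFNb. The next largest transcript shared this order except with saline. With such a spread, the missing calls do not show an unchanged level. Slc16a1 (MCT1) read 5.603 and 6.46 TPM with saline and 18.8 and 12.9 after LPS+IFNb (log2 difference 1.24, SE 0.22, adjusted p = 0.0023). Slc17a5 (sialin), which frees sialic acid from lysosomes, fell with LPS from 44.9 and 40.8 to 16.7 and 17.4 TPM (-1.28, adjusted p = 0.00022) and not with IFNb (39.2 and 38.3 TPM, -0.14, adjusted p = 0.32). Slc22a4, the ergothioneine carrier, fell with IFNb from 19.9 and 22.9 to 8.42 and 9.71 TPM (-1.15, adjusted p = 0.0044).

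The last group, 12 carriers of vitamins, choline, lipids and acetyl-CoA, had 1 riser and 4 fallers with each agent. The choline carrier Slc44a1 held 34.8 and 39.2 TPM with saline, 168 and 159 after LPS (log2 difference 2.11, SE 0.12, adjusted p = 3.3e-05), 32.6 and 28.1 after IFNb and 102 and 115 after LPS+IFNb. Its relative Slc44a2 fell with LPS, from 46.3 and 46.8 to 24.97 and 24.8 TPM (-0.88, adjusted p = 0.00038). Slc23a2, which imports vitamin C, rose with IFNb from 35.8 and 47.7 to 82.3 and 73.7 TPM (0.90, adjusted p = 0.006) and read 45.7 and 40.9 TPM with LPS (0.07, adjusted p = 0.78; 0.52 rescaled, adjusted p = 0.032). Slc46a3, a lysosomal carrier, read 22.3 and 23.1 TPM with saline, 9.001 and 4.65 after LPS, 7.73 and 8.96 after IFNb and 2.74 and 3.87 after LPS+IFNb, and the acetyl-CoA carrier Slc33a1 fell with LPS from 21.2 and 19.5 to 8.598 and 8.11 TPM (-1.19, adjusted p = 0.0004).

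**Figure D4:**
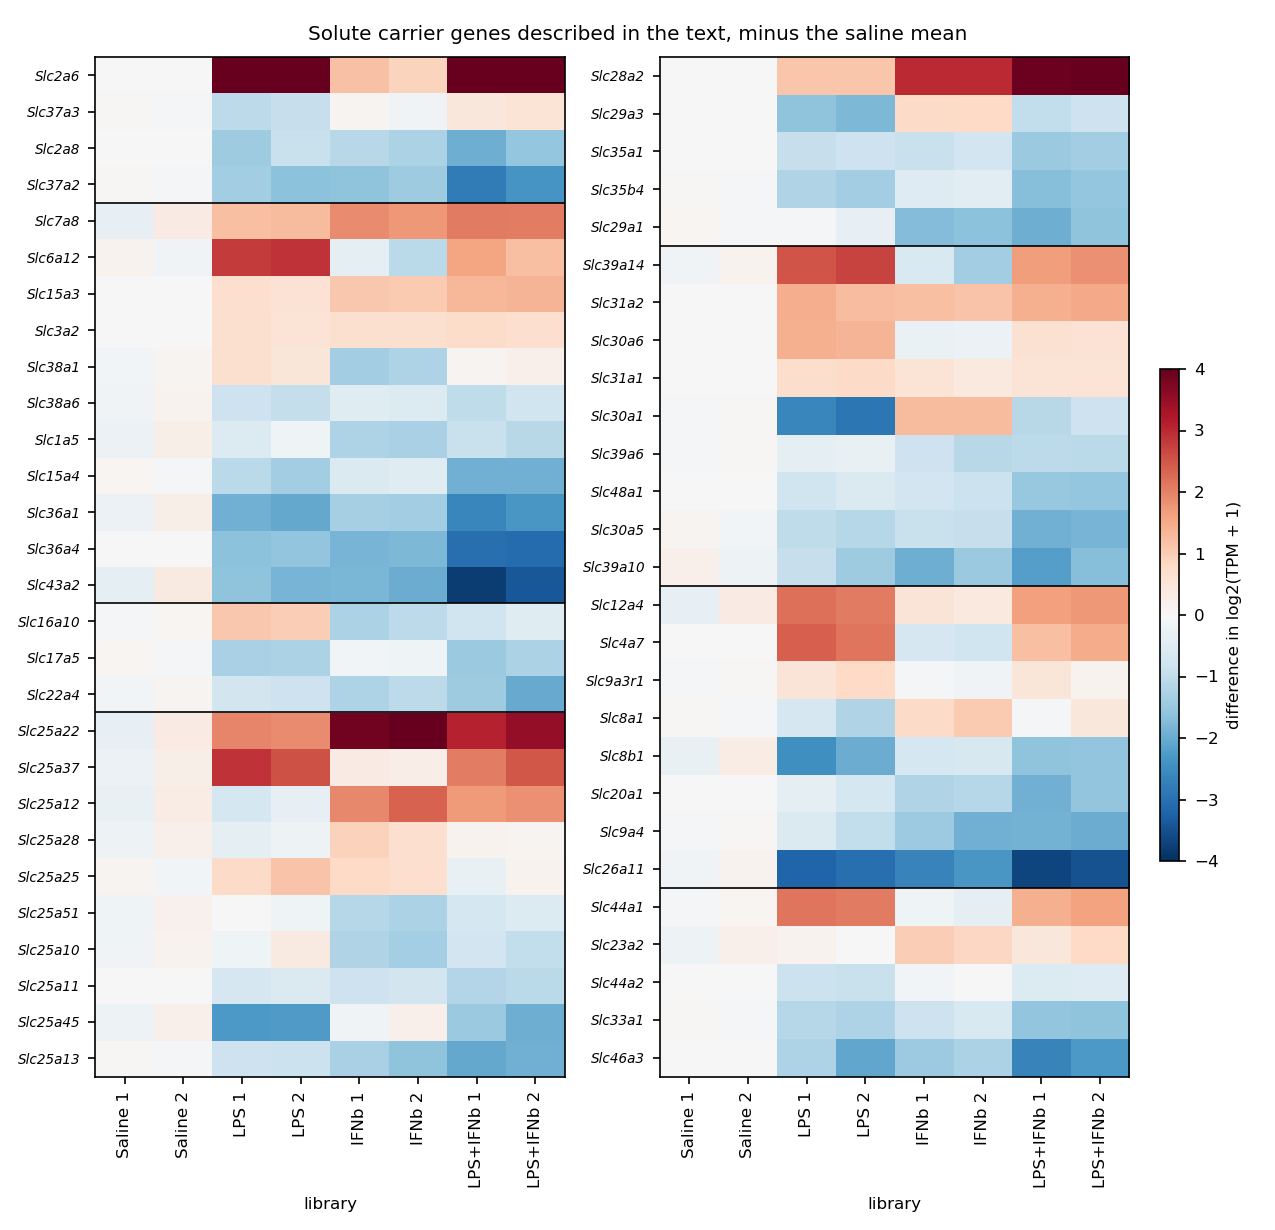
Difference in log2(TPM + 1) from the mean of the 2 saline libraries for the 55 solute carrier genes described in the text that had a mean of 5 TPM or more and were called on both scales with LPS or with IFNb, 1 column per library (color scale clipped at -4 and 4). Black lines divide substrate groups, and blue rows outnumber red ones.

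Whether the 2 agents added up was tested as an interaction, the LPS effect after IFNb minus the LPS effect alone, with the caution on timing given above. It was called higher for 5 solute carriers (3.51% of all genes) and lower for 7 (4.45% of all genes), and on both scales for 2 and 6 (1.65% and 4.06%). For the carriers the shares as deposited were 2.79% and 3.91%, not above those over all genes. Slc25a22 had the largest shortfall (log2 difference -2.63, SE 0.33, adjusted p = 0.0058): LPS alone added 1.93 on the log2 scale, and after IFNb the change was -0.69. Slc25a25, which exchanges ATP-magnesium for phosphate across the mitochondrial membrane, rose with either agent, from 21.4 and 17.99 TPM to 34.4 and 44.03 after LPS and 34.6 and 31.6 after IFNb, and read 15.8 and 21.7 TPM with both (log2 difference -1.75, SE 0.27, adjusted p = 0.012, a call lost without IFNb replicate 1). The copper carrier Slc31a2 (-1.03, adjusted p = 0.0054) and Slc2a6 (-1.11, adjusted p = 0.0088) likewise came out below the sum. For Slc31a1 (-0.66, adjusted p = 0.026) the call was lost when any 1 library was left out. In the other direction, Slc37a3 (log2 difference 1.49, SE 0.18, adjusted p = 0.0054) had both libraries of the combined group above every other library. Slc26a11 (log2 difference 2.04, SE 0.27, adjusted p = 0.0068) fell with each agent by itself, to levels at or below 2.97 TPM, and changed by -1.07 when LPS followed IFNb. From its level after IFNb it could fall by at most 1.83 on this scale, so at least 1.28 of this interaction was fixed by the floor at 0. The interaction counts also moved when 1 library was left out. More genes were called higher without saline replicate 1, and fewer without any 1 of the other 7. Fewer were called lower without any 1 library of the LPS, IFNb or LPS+IFNb groups. Every such fit leaves 1 library in a group, so the smaller counts do not single out a library.

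Transporters outside the Slc symbols, from lists chosen with earlier results of these data known, gave the setting. Of 24 solute carrier proteins under other symbols, 3 were higher and 15 lower with LPS as deposited (12.8% and 41.3% of all genes were), and 4 and 7 rescaled (20% and 16.7%). With IFNb the counts were 3 and 16 as deposited (13% and 38.6%) and 3 and 10 rescaled (17.8% and 14.1%). Among them the organic anion carrier Slco3a1 read 1.73 and 1.74 TPM with saline, 5.34 and 7.504 after LPS, 51.8 and 63.8 after IFNb and 51.6 and 68.3 after LPS+IFNb, higher with IFNb by log2 difference 4.42, SE 0.20, adjusted p = 1.3e-05. Of 25 ATP-binding cassette transporters, 4 were higher and 11 lower with LPS as deposited and 5 and 6 rescaled, and with IFNb 4 and 13 as deposited and 5 and 8 rescaled. Tap1, a subunit of the pump that loads peptides onto MHC class I, read 44.5 and 45.9 TPM with saline, 279 and 269 after LPS and 621 and 635 after IFNb. The 17 subunits of the vacuolar proton pump, which acidifies the lysosome, had 1 higher and 10 lower with LPS as deposited and 1 and 3 rescaled. With IFNb the counts were 3 and 12 as deposited and 3 and 1 rescaled. Most of their lower calls were not held on the second scale, which was also so over all genes. There the lower share went from 41.3% to 16.7% with LPS and from 38.6% to 14.1% with IFNb.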

How the data were processed

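RNA was measured by sequencing in 8 libraries of mouse macrophages, 2 per group, prepared with a TruSeq RNA kit per the labels' protocols. The authors deposited TPM per Ensembl transcript, made with kallisto, and the notes name build mm10, per the submitters' processing notes. Its version, settings and strand use were not given in the sources used here. TPM keeps no read totals, so the depth is unknown and no counting interval is printed. TPM of 86119 transcripts was summed per gene with GENCODE M21, and 2079 unmatched transcripts (1.01% to 1.95% of TPM) were left out. Of 30284 genes, the 13009 with 1 TPM or more in 2 or more libraries were fitted as log2(TPM + 1) with limma-trend (limma 3.58.1, R 4.3.3, with Python 3.11.15 and pandas 2.3.3 for tables), with 4 group means and 4 residual degrees of freedom. Tests were two-sided with Benjamini-Hochberg adjustment over all 13009 genes, and adjusted p under 0.05 was called. Differences on this scale understate changes of low genes. The procedure was tested on simulated data.

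The solute carrier genes, the substrate groups (by family number), the marker lists and the other transporter lists were chosen with earlier results of these data known. Genes were named if they had the 6 largest rises or falls of a comparison (called on both scales, mean log2(TPM + 1) of 2 or more, no overlap of libraries), if they were among the 3 lowest adjusted p per direction in a substrate group, if they had the 10 highest saline means, or if they were on a list of well-known carriers. Slc25a15 was named after its values were seen, for its promoter match. Slc17a8, Slc25a27, Slc39a4, Slc4a3 and Slc22a21 were named for their place at the level rule and Slc4a1ap for its symbol. Alternatives changed the scaling (median ratio, upper quartile, protein-coding genes), the pseudocount (0.1), the filter (none, 5 TPM), the groups fitted, a replicate block, the libraries (each left out) and, chosen after seeing the data, the transcripts summed (protein-coding, or 500 bases or more). Some items are not reported here. Promoter windows came from RefSeq on GRCm38.p6.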

Additional observations from a re-analysis of the deposited data

Results flagged for a closer look

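For 12 solute carrier genes the LPS effect differed between cells that had IFNb first and cells that had none, by limma's interaction term (adjusted p under 0.05 over all 13009 genes, values as deposited). That is 5 genes in the higher and 7 in the lower direction, or 2.79% and 3.91% of the carriers beside 3.51% and 4.45% of all genes, so the count is not above the background. Each value below is the LPS effect after IFNb minus the LPS effect alone, in log2(TPM + 1), from 2 libraries per group. The 7 genes with a smaller LPS effect after IFNb were Slc25a22 (-2.63), Slc25a25 (-1.75), the hexose carrier Slc2a6 (-1.11), the amino acid carrier Slc7a5 (-1.06), the copper carriers Slc31a2 (-1.03) and Slc31a1 (-0.66), and the CD98 heavy chain Slc3a2 (-0.53). The 5 with a more positive difference were Slc35f6 (0.75), the glutamine carrier Slc38a1 (0.91), the lysosomal Slc37a3 (1.49), the vitamin carrier Slc5a6 (1.57) and the anion carrier Slc26a11 (2.04). After rescaling, Slc3a2, Slc35f6, Slc38a1 and Slc5a6 were no longer called. Slc5a6 met the level rule through the saline libraries alone and read at most 0.0471 TPM in any treated library, so its value was fixed by the level rule and the floor at 0 and tests nothing. For Slc26a11 the floor alone set an interaction of at least 1.28. Slc25a22, Slc2a6, Slc31a2, Slc37a3 and Slc26a11 were called under every library left out.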

How the results depend on the processing

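Rescaling by the median ratio moved these counts of solute carrier genes by over 1.5 times: lower with LPS 42, lower with IFNb 44, LPS+IFNb against LPS lower 26, LPS+IFNb against IFNb lower 27, LPS+IFNb against saline higher 46 and lower 67, and interaction higher 3. Upper-quartile scaling gave 46, 47, 28, 29, 45 and 71 for the first 6 of these, and 29 genes higher in LPS+IFNb against LPS. Without a filter on low values, 12 were higher in LPS+IFNb against LPS. The interaction was called higher for 8 genes when scaled on protein-coding genes and for 8 with transcripts of 500 bases or more only.

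Leaving out 1 library at a time gave 22 to 30 higher and 72 to 94 lower with LPS, 17 to 23 and 68 to 88 with IFNb, 8 to 21 and 29 to 62 for LPS+IFNb against LPS, 12 to 22 and 36 to 70 against IFNb, 23 to 32 and 107 to 111 against saline, and 2 to 10 and 3 to 8 for the interaction. Where this left 1 library in a group, that library was assumed to vary like the other groups.

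Of 358 results for named genes, 258 kept their direction and call under median-ratio scaling, 92 lost the call and 8 reversed. LPS+IFNb against saline reversed under median-ratio and upper-quartile scaling for Slc16a10 (0.0639 and 0.0153), Slc25a3 (0.22 and 0.17), Slc25a5 (0.12 and 0.0662), Slc25a51 (0.0859 and 0.0368), Slc38a2 (0.25 and 0.20) and Slc44a2 (0.18 and 0.13), and LPS against saline for Slc25a4 (0.0715 and 0.0194) and Slc25a5 (0.12 and 0.0631). Over protein-coding transcripts only, Slc1a5 reversed with IFNb (1.24) and with LPS+IFNb against saline (1.09). The cause of these moves was not tested.

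Deviations of same-numbered libraries correlated between -0.16 and 0.14, so the replicate numbers gave no common pairing. The correlation was 0.14 for saline with LPS, 0.13 for IFNb with LPS+IFNb and 0.0053 for saline with LPS+IFNb. The other pairs of groups were negative, from -0.16 to -0.11. Some markers were uneven in a crossed way. S100a9, Retnlg, Prg4, Krt19, Msln and Upk3b were higher in replicate 2 of saline and LPS and in replicate 1 of IFNb and LPS+IFNb. So was the main transcript of Slc16a3. For S100a9 the values were 3.85 and 12.7, 4.21 and 31.5, 9.56 and 0.638, and 12.6 and 2.57 TPM. Not all markers did this: S100a8 read 70.8 and 63.5 TPM with saline. A block on replicate number does not take up such a pattern, and its source was not tested. With a replicate block, 26 genes were higher and 90 lower with LPS, 23 and 86 with IFNb, and no count moved by over 1.5 times. With no read totals, what depth limits could not be measured.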
